A study of Zea mays with 12 samples.

Results

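fie1 is 1 of 2 maize genes for the WD40-repeat protein of Polycomb repressive complex 2, and the other is fie2. On the maize array 1 probe set, Zm.4373.1.S1_at, was assigned to fie1 through the synonym of its gene entry. The array holds 17621 probe sets that are not controls, and 1108 genes have an annotated probe set there. Each probe set combines several short probes for a transcript into 1 signal. The arrays measured embryos at 19 days after pollination from field-grown plants of the inbred lines B73 and Mo17 and of their hybrids B73xMo17 and Mo17xB73, with 3 biological replicates and so 3 arrays in each of the 4 groups. Both hybrids join the same inbreds, crossed in opposite directions. The first name is read here as the seed parent, by convention, since no label states it. Arrays with the same replicate number come from 1 collection date. The groups differ in genotype only as far as the labels say, and no treatment was given.

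Polycomb repressive complex 2 places methyl groups on lysine 27 of histone H3 and so helps to keep genes silent. Its catalytic subunit is a homologue of the Drosophila protein Enhancer of zeste, and the fie proteins are homologues of the Drosophila protein Extra sex combs. In maize, fie1 is known as an endosperm gene that is imprinted: the copy from the mother is expressed and the copy from the father is silent. fie2 is known to be expressed in the embryo as well as in the endosperm. The endosperm is the nutritive tissue next to the embryo and receives more genome copies from the seed parent than from the pollen parent, while the embryo receives equal numbers from both.

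The fie1 signal followed the seed parent. It was high in B73 and in B73xMo17 and low in Mo17 and in Mo17xB73. After quantile normalization the B73 arrays measured 354, 391 and 367 signal units in replicates 1, 2 and 3. The B73xMo17 arrays measured 470, 285 and 395. The B73 arrays lay close together, and B73xMo17 spread more widely on both sides of them. The Mo17 arrays measured 138, 240 and 156, and the Mo17xB73 arrays measured 170, 223 and 141. The highest array with a Mo17 seed parent, Mo17 replicate 2, lay below the lowest array with a B73 seed parent, B73xMo17 replicate 2, so the 2 sets of 6 arrays did not overlap. Such a gap in this direction was found for 513 of the 17621 probe sets (2.91%), and in the opposite direction for 434 (2.46%).

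**Figure D1:**
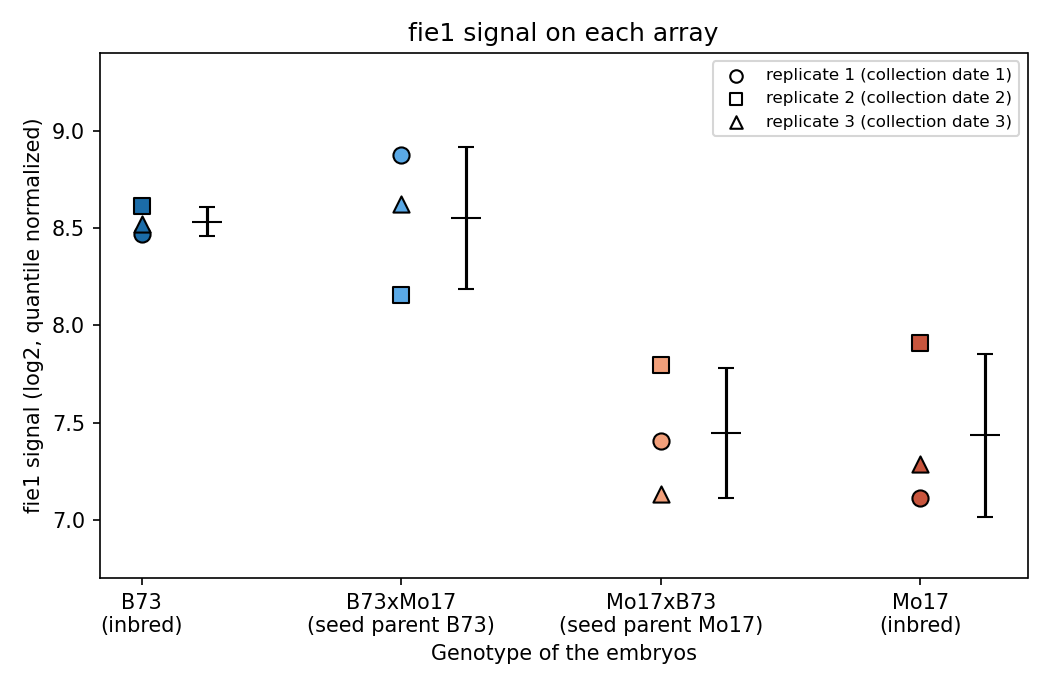
Points give the log2 quantile-normalized fie1 signal of each of the 12 arrays by genotype, with the marker shape for the replicate number; the black line and bars give the group mean and SD (n = 3). The B73 and B73xMo17 arrays all sit above the Mo17xB73 and Mo17 arrays.

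The deposited signals, before any normalization here, gave the same split by seed parent. They ran from 364 to 432 in B73 and from 338 to 416 in B73xMo17. They ran from 117 to 213 in Mo17 and from 147 to 219 in Mo17xB73. The spread within groups was not the same. As deposited, the SD was 35.9 signal units in B73 and 40.5 in B73xMo17, against 18.9 and 92.9 after normalization. The array of B73xMo17 replicate 2, the lowest of its group after normalization, had a deposited fie1 signal of 397 and the brightest array median of all, 313.8 signal units. As deposited, replicate 3 was the lowest of B73xMo17, at 338. On the 12 arrays fie1 stood between the 42.7th and the 64.2nd percentile of all probe sets, near the middle of the range. Detection calls were not used here, so whether the low signals lie above background is not known.

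Ordered by mean log2 signal ± SD (n = 3), B73xMo17 stood first at 8.55 ± 0.37. B73 followed at 8.53 ± 0.07. Mo17xB73 stood at 7.45 ± 0.33 and Mo17 at 7.43 ± 0.42. B73xMo17 and B73 did not differ beyond their spread, and neither did Mo17xB73 and Mo17. The step from B73 down to Mo17xB73 was larger than the spread.

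The comparison of the inbreds asked whether the lines themselves differ in fie1 signal. B73 exceeded Mo17 by 1.10 ± 0.22 on the log2 scale (SE; limma adjusted p = 0.00149), or 2.14-fold with a 95% interval from 1.53 to 3.00. The same test called 35.9% of all probe sets. B73 had the stronger signal for 16.4% of all, as for fie1, and Mo17 for 19.5%. In this bulk tissue, fewer cells of a type and less RNA per cell cannot be told apart. Whether the fie1 probes bind transcripts of the B73 and Mo17 alleles equally was not tested, here or in the comparisons below. Within replicate numbers the difference was 1.35, 0.70 and 1.24 for replicates 1, 2 and 3.

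The comparison of the reciprocal hybrids asked whether the crossing direction matters when both alleles are present in every embryo. B73xMo17 exceeded Mo17xB73 by 1.10 ± 0.22 (SE; limma adjusted p = 0.0393), a ratio of 2.15 with a 95% interval from 1.54 to 3.01. The same test called 0.868% of all probe sets between the reciprocal hybrids, and 0.363% of all were higher in B73xMo17, as fie1 was, with 0.505% lower. The difference was 1.47, 0.36 and 1.49 within replicates 1, 2 and 3, so B73xMo17 was the higher on each date and by least on the second. This call lay near the threshold. It was lost when any of 8 of the 12 arrays was left out, namely each B73 array, B73xMo17 replicates 1 and 3, Mo17 replicate 3 and Mo17xB73 replicates 1 and 3 (limma adjusted p from 0.0515 to 0.164), without collection date 1 (0.233) or 3 (0.405), and with no intensity trend (0.154) or a floor under dim signals (0.132), while the difference stayed between 0.95 and 1.30 without any single array. With 3 arrays against 3, a two-sided exact permutation test on fie1 alone gave p = 0.1 for the inbreds and p = 0.1 for the reciprocal hybrids, the smallest it allows.

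The size of the difference was alike in both comparisons, which share no array but share the collection dates and the estimate of the spread. The reciprocal difference minus the inbred difference was 0.01 ± 0.32 (SE; limma adjusted p = 0.993), with a 95% interval from -0.68 to 0.69. As a ratio, that interval runs from 0.625 to 1.61. Of all probe sets, 21.9% were called in this test.

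**Figure D2:**
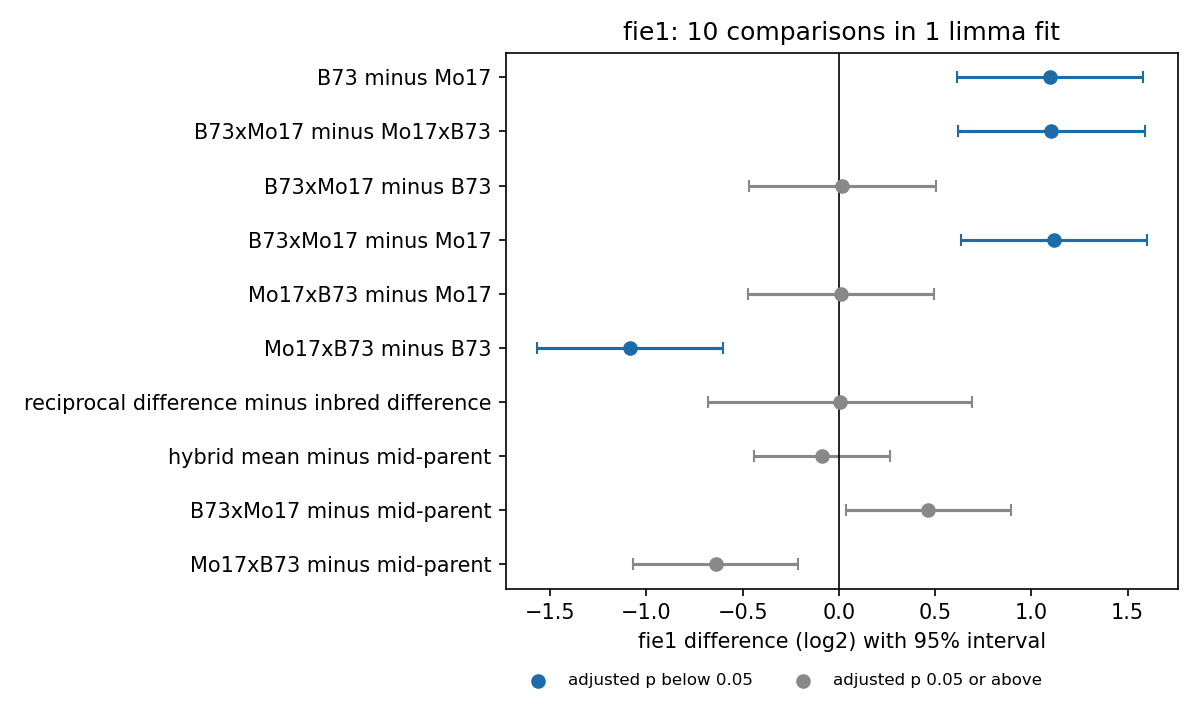
Points give the fie1 difference on the log2 scale for each of the 10 comparisons, with bars for the 95% interval; blue marks a limma adjusted p below 0.05. The 4 comparisons across seed parents are called, with sizes from 1.09 to 1.12, and the comparisons of a hybrid with its own seed parent sit at 0.02 and 0.01.

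Set against the inbreds, each hybrid lay near its seed parent and differed from its pollen parent. These 4 comparisons share arrays with each other and with the 2 above. B73xMo17 stood 0.02 ± 0.22 from B73 (limma adjusted p = 0.976), with a 95% interval from -0.47 to 0.50, where 11% of all probe sets were called. Mo17xB73 stood 0.01 ± 0.22 from Mo17 (limma adjusted p = 0.982), with an interval from -0.47 to 0.50, where 16.3% were called. These intervals reach 1.42-fold and 1.41-fold, so differences from the seed parent up to about that size remain possible. Against the pollen parent, B73xMo17 exceeded Mo17 by 1.12 ± 0.22 (limma adjusted p = 0.00275), where 22.3% of all probe sets were called. Mo17xB73 fell by 1.09 relative to B73 (SE 0.22, limma adjusted p = 0.00458), where 16.4% were called. Without collection date 1 or 3 the call of B73xMo17 against Mo17 was lost (limma adjusted p = 0.0703 and 0.0615), and without date 3 that of Mo17xB73 against B73 (0.0948).

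The title of the series names additive expression, in which a hybrid lies at the mid-parent, the mean of both inbreds. The mean of both hybrids did so within its error, at -0.09 ± 0.16 from it (SE; limma adjusted p = 0.874, 95% interval from -0.44 to 0.27), where 0.528% of all probe sets were called. Taken singly, the hybrids stood on opposite sides. B73xMo17 lay 0.47 ± 0.20 above the mid-parent (limma adjusted p = 0.352; 95% interval from 0.04 to 0.89) and Mo17xB73 at -0.64 ± 0.20 (limma adjusted p = 0.222; 95% interval from -1.07 to -0.21). Neither passed the threshold, which 0.789% and 0.528% of all probe sets did. After quantile normalization, B73xMo17 was above the mid-parent on dates 1 and 3 (0.93 and 0.59) and below it on date 2 (-0.15). Mo17xB73 was below the mid-parent on all 3 dates (-0.54, -0.50 and -0.90). The deposited date 2 signals were 397 in B73xMo17, 379 in B73 and 213 in Mo17, with the hybrid above both inbreds. The place of B73xMo17 on date 2 thus depended on the normalization.

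A position between the inbreds puts the hybrids on a common scale, with 0 at Mo17, 1 at B73 and 0.5 at the mid-parent, all on linear signals. fie1 in B73xMo17 stood at 1.02 ± 0.30 (SE by the delta method; 95% interval from 0.383 to 1.67), and in Mo17xB73 at 0.007 ± 0.136 (interval from -0.287 to 0.302). On this linear scale the interval of B73xMo17 held the mid-parent, while its log2 interval above (from 0.04 to 0.89) did not. Both intervals refer to the same mid-parent and are delta-method approximations. They thus do not settle whether B73xMo17 departed from the mid-parent. The interval of Mo17xB73 left out the mid-parent on both scales. On single dates the positions of B73xMo17 were 1.54, 0.298 and 1.13, and those of Mo17xB73 were 0.146, -0.115 and -0.0731. Date 2, on which the inbreds were closest, put B73xMo17 below the mid-parent after quantile normalization, but not with the deposited signals. For a parental mean in which the seed parent counts 2 times, as in endosperm dosage, the positions would be 0.667 and 0.333. Against that mean, an alternative chosen after the values were seen, B73xMo17 stood at 0.30 ± 0.21 (limma adjusted p = 0.608) and Mo17xB73 at -0.45 ± 0.19 (limma adjusted p = 0.287).

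Among the 3766 probe sets that were called between the inbreds and stood at least 1.5-fold apart, the median position was 0.575 in B73xMo17 and 0.498 in Mo17xB73. The gap between both positions had a median of 0.0663, with quartiles of -0.0422 and 0.200. The gap of fie1 was 1.02, at the 98.9th percentile, and 42 probe sets had a gap at least as large. In all, 105 probe sets (0.596%) were called in both the inbred and the reciprocal comparison with 1 sign, fie1 among them, and 9 (0.0511%) with opposite signs. The count of 105 ran from 38 to 101 without any 1 array. It was 50 and 47 without B73xMo17 replicate 2 or 3, 42 and 38 without Mo17xB73 replicate 2 or 3, and 61, 16 and 7 without date 1, 2 and 3. Of the 105, 50 were higher in B73 and in B73xMo17, and 55 were lower.

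**Figure D3:**
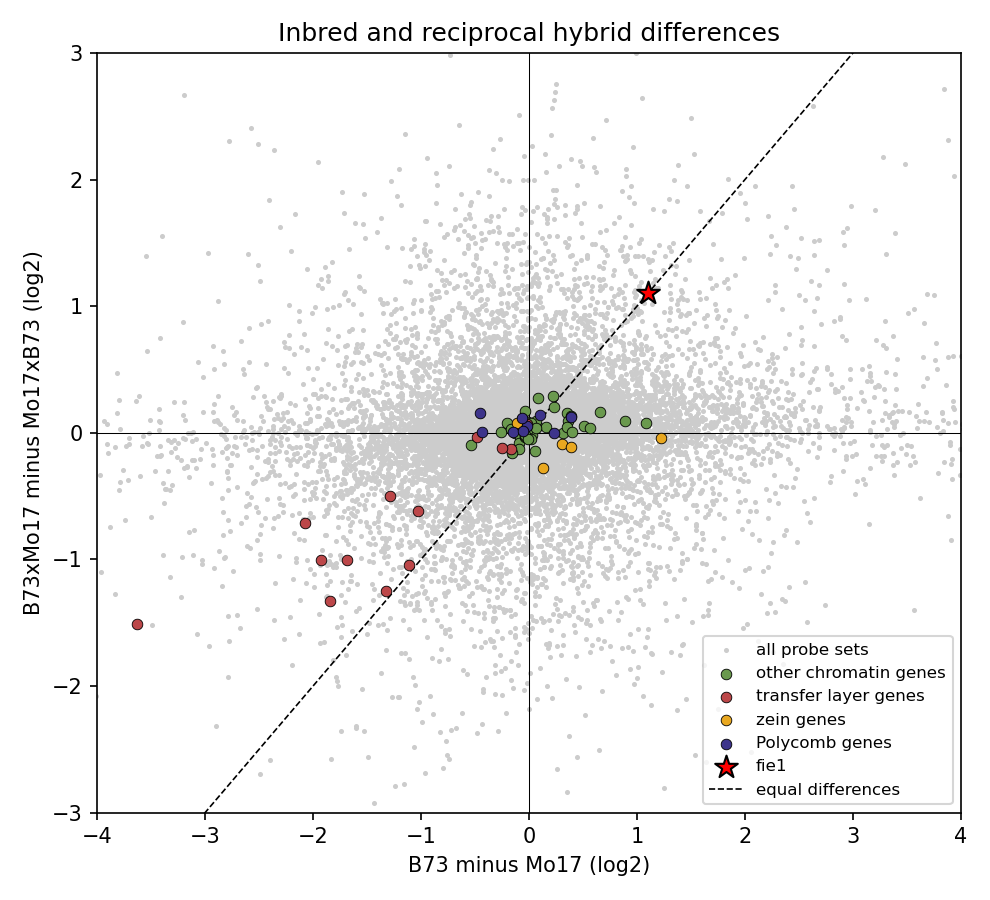
Each grey point is 1 probe set, with the B73 minus Mo17 difference on the x axis and the B73xMo17 minus Mo17xB73 difference on the y axis (both log2; points beyond the axes are not shown); coloured points are listed genes, 1 probe set each, and the dashed line marks equal differences. fie1 (star, 1.10 and 1.10) lies on the line, the other Polycomb genes lie near 0 on the y axis, and 12 of 13 transfer layer genes lie below 0 on the y axis.

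The array also holds fie2, the other gene of the pair. Its mean log2 signal was highest in Mo17 at 9.15 ± 0.08 and lowest in B73 at 9.00 ± 0.05 (SD, n = 3), and the hybrids lay between them at 9.10 ± 0.04 for B73xMo17 and 9.09 ± 0.05 for Mo17xB73. fie2 stood at -0.14 ± 0.07 between the inbreds (SE; limma adjusted p = 0.136) and at 0.01 ± 0.07 between the reciprocal hybrids (limma adjusted p = 0.982). The former passed the threshold with a floor under dim signals (0.0333). The signals of fie1 and fie2 come from different probes, so their levels were not set against each other. Whether transcripts of 1 gene bind to the probes of the other was not tested.

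The catalytic subunits are encoded by the Enhancer of zeste homologues mez1, mez2 and mez3. mez1, itself known as a maternally expressed gene in maize endosperm, measured 9.64 ± 0.01 in B73xMo17 and 9.63 ± 0.01 in B73, against 9.53 ± 0.08 in Mo17 and 9.50 ± 0.06 in Mo17xB73. Its 6 arrays with a B73 seed parent lay above the other 6, as they did for 3 of the 10 Polycomb genes (fie1, mez1 and vef101), 4 of 44 other chromatin genes (hxa103, sdg118, mbd109 and mbd111, chosen by this gap) and 2.91% of all probe sets. The mez1 differences of 0.10 ± 0.06 and 0.14 ± 0.06 did not pass the threshold (limma adjusted p = 0.231 and 0.404). mez2 was higher in Mo17 by a difference of -0.43 ± 0.14 (limma adjusted p = 0.0285), and between the hybrids it stood at 0.005 ± 0.142. mez3 was the dimmest of the list, with group means from 4.78 to 5.61, and stood at -0.45 ± 0.29 and 0.16 ± 0.29 (limma adjusted p = 0.266 and 0.904).

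The remaining parts of the complex on the array are vef101, a homologue of the Arabidopsis protein EMF2, and nfc101 to nfc104, histone-binding WD40 proteins of the MSI1 and RbAp type. vef101 was higher in B73 by 0.39 ± 0.09 (limma adjusted p = 0.00352) and nfc104 by 0.23 ± 0.07 (limma adjusted p = 0.017). nfc101, nfc102 and nfc103 stood between -0.06 and -0.02 between the inbreds and between 0.01 and 0.12 between the hybrids. Other probe sets of nfc102 stood at -0.06 and -0.04, and at 0.16 and 0.13. Of the 10 Polycomb genes, fie1 included, 3 had higher signals in B73 and 1 in Mo17, against 35.9% of all probe sets called. Between the reciprocal hybrids fie1 alone was called (1 of 10), against 0.868% of all probe sets. The median reciprocal difference of the 10 was 0.09, against 0.01 over all probe sets. All 10 estimates were above 0, the lowest at 0.001, as were 9149 of all 17621 probe sets. Those of fie2, nfc103, nfc104, mez2 and mez3 changed sign when some arrays or dates were left out. Under each setting named above that ended the fie1 call, 0 of the 10 were called between the reciprocal hybrids by limma. With the values as deposited, fie1 was the 1 gene of the 10 still called between the inbreds, and the calls of mez2 (limma adjusted p = 0.574), vef101 (0.272) and nfc104 (0.549) were lost.

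**Figure D4:**
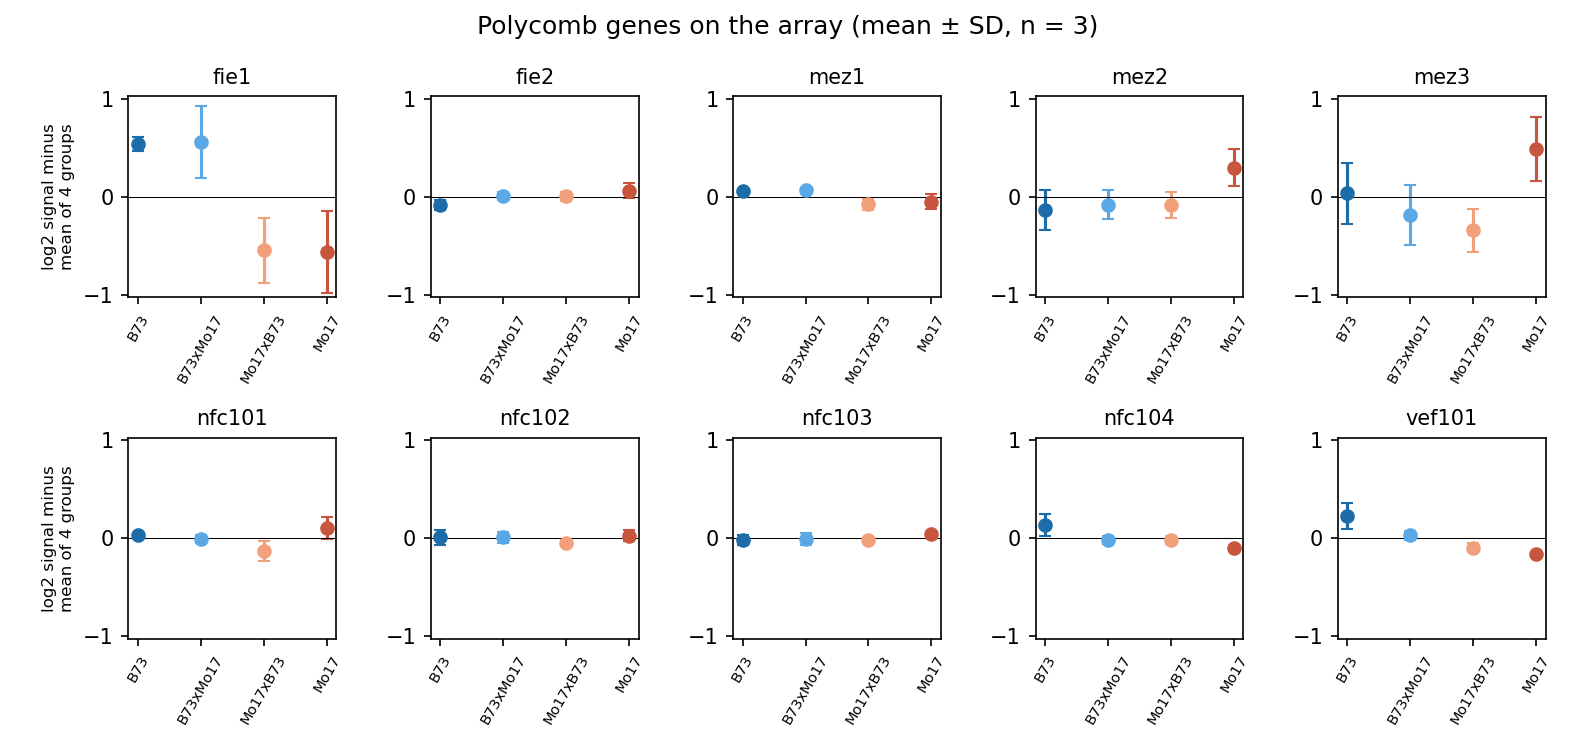
Each panel shows 1 Polycomb gene as the log2 signal of the 4 genotypes minus the mean of the 4 groups (points, with bars for the SD, n = 3). fie1 separates by seed parent with steps of about 1.1, while fie2, nfc101, nfc102 and nfc103 stay near 0 in all groups.

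Other chromatin genes were called about as often as probe sets in general. Of 44 such genes, B73 had the stronger signal for 14 and Mo17 for 3, or 38.6% called between the inbreds against 35.9% of all probe sets. The widest were hac108 (1.08 ± 0.09, limma adjusted p = 4.09e-07) and hag101 (0.89 ± 0.08, 9.91e-07), both histone acetyltransferases, hxa102 (0.65 ± 0.08, 2.42e-05), a homologue of the yeast coactivator Ada2, and hxa103 (0.56 ± 0.07, 4.3e-05). Their reciprocal differences ran from 0.04 to 0.17. Between the reciprocal hybrids 0 of the 44 passed the limma threshold, against 0.868% of all probe sets (2 had an unadjusted p below 0.05), with estimates from -0.16 to 0.29. dmt101, a DNA methyltransferase, stood at -0.07 ± 0.08 and 0.11 ± 0.08 (limma adjusted p = 0.578 and 0.702).

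Since fie1 is known from endosperm, endosperm and embryo markers were read on the same arrays. Both tissues left strong signals. Embryo markers were bright, with ole1, an oil body protein, at group means from 13.81 to 13.87 and the globulin gene glb1 from 13.46 to 13.80. Of the 12 defining endosperm markers on the array, the gamma zein gene gz27 had group means from 12.83 to 13.03. The dimmest of them, incw2, had group means from 5.92 to 8.14. Bright signals of some endosperm markers were thus measured in every group of the labelled embryo tissue. The summed signal of the 36 endosperm genes ran from 73179 to 82207 in B73, from 82037 to 87471 in B73xMo17, from 77105 to 86381 in Mo17xB73 and from 58443 to 78846 in Mo17. These ranges overlapped across seed parents, and Mo17 included the lowest. The sums of narrower lists that hold the bright zein gene dzs18 came close to a split by seed parent in the direction of fie1. The sum of the 12 defining endosperm genes ran from 38303 to 45789 in B73 and from 45350 to 48003 in B73xMo17, against 34807 to 38658 in Mo17xB73 and 25676 to 38089 in Mo17. The zein sum ran from 43220 to 47575 in B73 and from 45101 to 49992 in B73xMo17, against 36750 to 43815 in Mo17xB73 and 26146 to 32356 in Mo17. In both lists the lowest B73 array lay below the highest Mo17xB73 array. dzs18 had mean log2 signals of 13.59 in B73, 13.64 in B73xMo17, 11.53 in Mo17xB73 and 6.55 in Mo17. As the sums are linear, this 1 gene weighs heavily in both. The sums were not computed without dzs18, so no split is read as a trait of either list. The part of endosperm RNA in the fie1 differences was not tested.

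Classes of endosperm genes differed in direction. The 13 transfer layer genes, which serve nutrient uptake from the mother plant, ran against fie1. Between the inbreds 9 were higher in Mo17 and 0 in B73, where 19.5% and 16.4% of all probe sets were. Between the hybrids 3 were higher in Mo17xB73 and 0 in B73xMo17, where 0.505% and 0.363% of all probe sets were, namely bap1-b (-1.33 ± 0.19, limma adjusted p = 0.00464), bap-1a (-1.25 ± 0.18, 0.00614) and meg2 (-1.0 ± 0.20, 0.0362). Their median reciprocal difference was -0.71, against 0.01 for all probe sets. The calls of bap1-b, bap-1a and meg2 were lost without the intensity trend (0.0617, 0.0676 and 0.164), those of bap-1a and meg2 also with the floor (0.0546 and 0.142), and that of meg2 with the values as deposited (0.0892). The zein calls ran with fie1. Of 6 zein genes, 3 were called between the inbreds, all with B73 on top (35.9% of all probe sets were called), and dzs18 alone was called between the hybrids, where 0.868% of all were (2.11 ± 0.10, limma adjusted p = 2.92e-07). The other 5 zein genes had reciprocal differences from -0.28 to 0.08. Of 12 starch genes and their regulators, 2 had stronger signals in B73 and 1 in Mo17, or 25% called against 35.9% of all. Between the hybrids 0 of the 12 were called by limma, against 0.868% of all (3 at an unadjusted p below 0.05), with a median of 0.13. The widest inbred differences of the whole endosperm list were those of dzs18 (7.04 ± 0.10), bap-3a (-3.63 ± 0.69), the zein regulator o2 (2.82 ± 0.23) and the dimmer of 2 genes annotated as ae1 (-2.36 ± 0.76). The last was dim in every group, with mean log2 signals from 1.80 to 4.15, and bap-3a had dim B73 signals. With the floor of 27.6 signal units both differences were lost (0.00 for ae1 and -0.05 for bap-3a). Little signal was thus left above the floor in either inbred.

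**Figure D5:**
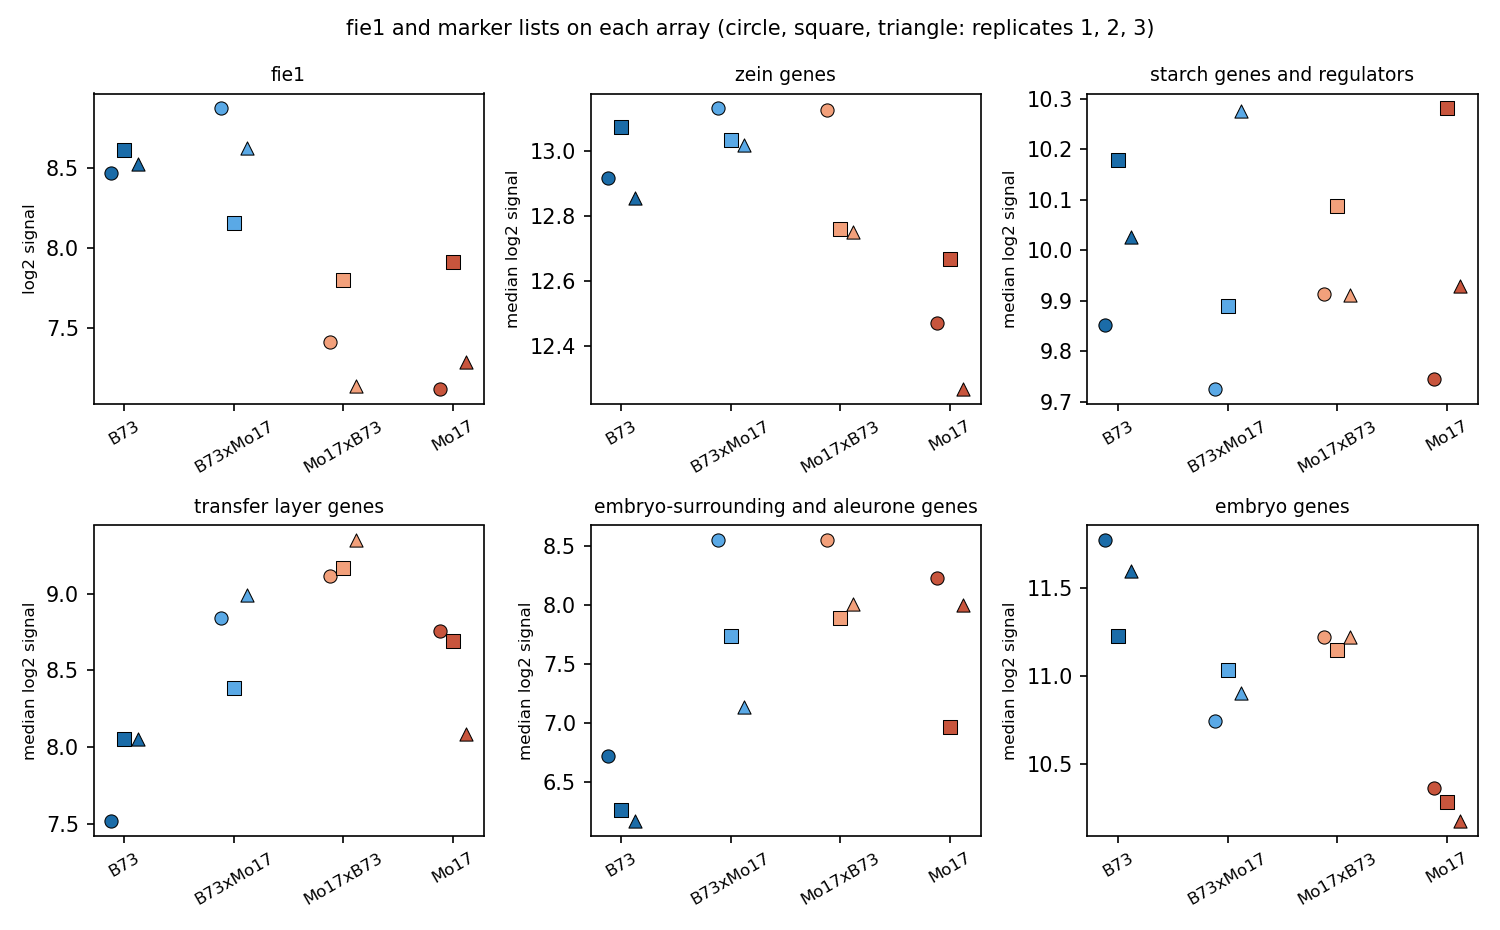
Each panel gives 1 value per array by genotype, as log2 signal for fie1 and as the median log2 signal over the genes of each marker list (circle, square and triangle for replicates 1, 2 and 3; axes differ). fie1 splits by seed parent, the transfer layer genes are lowest in B73, and the starch genes with their regulators overlap in all 4 groups.

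Embryo genes did not share the pattern as a list. Of 13, 7 were higher in B73 and 1 in Mo17, where 16.4% and 19.5% of all probe sets were, with EMB5 (2.26 ± 0.29), Sod4A (1.64 ± 0.09) and mlg3 (1.40 ± 0.31) higher in B73 and glb2 (-1.27 ± 0.12) in Mo17. The globulin gene glb3 alone of the 13 was called between the hybrids, where 0.868% of all were (0.77 ± 0.14, limma adjusted p = 0.0259), in the direction of fie1, a call lost with the values as deposited (0.118), with the floor (0.112) and without the intensity trend (0.145). The median reciprocal difference of the 13 was -0.09.

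Around the mean of its own genotype, fie1 varied from array to array. After quantile normalization, Mo17 replicate 2 and Mo17xB73 replicate 2 were the highest of their groups, and B73xMo17 replicate 2 was the lowest of its group. Mo17 replicate 2 also had the highest summed signal in its group for the zeins (32356, against 27603 and 26146) and for the transfer layer genes (16474, against 12133 and 12504). The summed signal of the 36 endosperm genes ordered the replicates as fie1 did in each genotype. In replicates 1, 2 and 3 it was 73179, 82207 and 77825 in B73 and 58443, 78846 and 63262 in Mo17. It was 87471, 82037 and 86948 in B73xMo17 and 83307, 86381 and 77105 in Mo17xB73. The median log2 signal of these 36 genes did not order Mo17 (9.39, 9.59 and 9.24) or Mo17xB73 (9.69, 9.92 and 9.84) as fie1 did. Sums of the narrower lists did not all track fie1 in every group. Mo17xB73 replicate 2 had the highest transfer layer sum of its group (18886) but not the highest zein sum (39947, against 43815 in replicate 1). B73xMo17 replicate 2 had the lowest transfer layer and zein sums of its group (8925 and 45101) but not the lowest starch sum (26305, against 23960 in replicate 1). In B73, replicate 2 was the highest for fie1, for the zeins (47575) and for starch genes and regulators (26685). It was not the highest for the transfer layer (6582, against 7342 in replicate 3). Over the 12 arrays, deviations from genotype means correlated with those of fie1 at a median r of 0.454 for the zeins, 0.367 for starch genes and regulators and 0.39 for transfer layer genes, against -0.269 for embryo-surrounding and aleurone genes, -0.323 for embryo genes and -0.00849 for all probe sets. These correlations are a description over 12 arrays that share collection dates and normalization, and their part in the fie1 result was not tested.

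The genes whose pattern was most like that of fie1 were sought by Pearson's r of the log2 signals over the 12 arrays, among 979 named genes. The value rests mainly on the split between groups and is a description. The highest was yuc (r = 0.955), named for the YUCCA family of auxin synthesis enzymes, and it ranked second among all 17620 other probe sets. yuc measured 10.52 ± 0.16 in B73, 10.64 ± 0.36 in B73xMo17, 9.72 ± 0.12 in Mo17xB73 and 9.56 ± 0.30 in Mo17 (SD, n = 3). It differed by 0.96 ± 0.17 between the inbreds (limma adjusted p = 0.000482) and by 0.92 ± 0.17 between the hybrids (limma adjusted p = 0.0239, and 0.107 with the floor and 0.132 without the trend). Next came m5 (r = 0.909), a MADS-box gene with the synonym SOC1, then a gene annotated as GTPase (0.904), the ubiquitin-conjugating enzyme gene ubc7 (0.902) and fps (0.875), a farnesyl diphosphate synthase. Their reciprocal differences were 1.47, 0.44, 0.35 and 0.58, of which that of ubc7 passed the threshold (limma adjusted p = 0.0239, a call lost with median centring, the values as deposited, the floor and no trend) and m5 did not (0.055, and 0.0366 with dim probe sets left out). With deviations from genotype means alone, r was 0.791 for yuc, 0.669 for m5, 0.585 for GTPase, 0.38 for ubc7 and 0.804 for fps.

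The most opposite were aos1 (r = -0.878), an allene oxide synthase of jasmonate synthesis, 41kDa (-0.853), with the synonym RGP, and lls1 (-0.841). aos1 was higher in Mo17 (-0.56 ± 0.07, limma adjusted p = 2.58e-05) and in Mo17xB73 (-0.47 ± 0.07, limma adjusted p = 0.00633, and 0.0617 without the trend and 1 with the values as deposited). 41kDa and lls1 were called between the inbreds (-0.29 and -0.91) and not between the hybrids (-0.12 and -0.37, limma adjusted p = 0.592 and 0.403). Apart from the mirrored direction, the group means of aos1 followed the seed parent as those of fie1 did, at 10.18 in B73 and 10.18 in B73xMo17 against 10.66 in Mo17xB73 and 10.73 in Mo17.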

How the data were processed

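Maize embryo RNA was measured on 12 one-colour Affymetrix arrays, 1 per biological replicate. The authors deposited linear signal intensity values per probe set; MAS5 is named, with no version, per the submitters' processing notes. Scaling between arrays is not given in the sources used here. Medians of the deposited arrays ran from 192.1 to 313.8. The genome build and the probe sequences were not used here. The 113 control probe sets were left out. Signals were put on the log2 scale, quantile normalized, and fitted as 4 group means in limma 3.58.1 (R 4.3.3; eBayes with an intensity trend, 8 residual degrees of freedom), with two-sided p-values adjusted by Benjamini-Hochberg over 17621 probe sets and a threshold of 0.05. The mid-parent is the mean of linear group means, with delta-method errors. On simulated data the fit did not recover as large a share of changed probe sets as first required. That requirement was then replaced by checks of bias, standard errors and false calls, which the fit met, so a probe set that was not called may still differ. The number of arrays limits the precision.

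Names came from the platform annotation and, by gene ID, from the RefSeq gene table of Zm-B73-REFERENCE-NAM-5.0 (1060 of 1108 genes matched); 16168 probe sets are unnamed here. Each listed gene is represented by its brightest probe set. Of the lists, a chitinase and a haemoglobin gene matched by a shared symbol were removed. Named are all Polycomb genes, the 4 widest called members of each other list, and the 5 named genes most like and 3 most unlike fie1. The gene and the lists were chosen with earlier results of these data known. Same-numbered replicates share a collection date per the labels; their deviations from group means correlated between -0.0525 and 0.0571 over 18 pairs of arrays.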

Additional observations from a re-analysis of the deposited data

How the results depend on the processing

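Each fie1 comparison was recomputed under other scalings, treatments of dim signals, variance models, with replicate number as a block, within each date and without each array or date; omissions of dates and the seed-parent weighting were chosen after seeing the data. The inbred difference of fie1 stayed called under every alternative with a test, from 0.93 to 1.32 without any 1 array. With the replicate block it was 1.10 (limma adjusted p = 0.00226) and the reciprocal difference 1.10 (0.0474), and the block changed no fie1 call. The reciprocal difference kept its size and lost its call with the floor (1.10, adjusted p = 0.132) and without the trend (1.10, 0.154), and also lost its call without date 1 (0.93, 0.233) or 3 (0.91, 0.405); without arrays or dates it ran from 0.91 to 1.47. Under the same omissions B73xMo17 minus Mo17 ran from 0.80 to 1.54, Mo17xB73 minus B73 from -1.27 to -0.93, B73xMo17 minus B73 from -0.18 to 0.25, Mo17xB73 minus Mo17 from -0.16 to 0.25, the reciprocal minus the inbred difference from -0.23 to 0.20, and the hybrid mean minus mid-parent from -0.24 to 0.024. Uncalled differences near 0 changed sign with median centring (B73xMo17 minus B73 at -0.0045, reciprocal minus inbred difference at -0.049), with the values as deposited (-0.031 and -0.053) and against a log2 mid-parent (hybrid mean at 0.015). Single dates departed most on date 2: 0.70 for the inbreds, 0.36 for the reciprocal hybrids, -0.46 for B73xMo17 minus B73, 0.25 for B73xMo17 minus Mo17, -0.35 for reciprocal minus inbred difference and -0.15 for B73xMo17 minus mid-parent. Date 1 gave 0.30 for Mo17xB73 minus Mo17 and 0.20 for the hybrid mean minus mid-parent, and date 3 gave -1.39 for Mo17xB73 minus B73 and -0.90 for Mo17xB73 minus mid-parent. These single-date values are after quantile normalization. The deposited signals put B73xMo17 above B73 on date 2 (397 against 379). The cause of the departures was not tested.

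With the values as deposited, where the median of all probe sets moved from 0.01 to 0.12 between the reciprocal hybrids, 2963 probe sets were called between the inbreds (61.2% higher in B73, against 45.7%), 42 between the reciprocal hybrids, 8 for the hybrid mean against the mid-parent, 1 of the Polycomb genes and 3 of the other chromatin genes. The floor gave 76 reciprocal calls, and no trend gave 39. For the hybrid mean against the mid-parent, no trend gave 4 calls, median centring 184 and the replicate block 153. Probe sets called in both comparisons with 1 sign numbered 30 as deposited, 59 with the floor and 26 with no trend, and ran from 7 to 101 without arrays or dates. Without arrays or dates reciprocal calls ran from 7 to 144, mid-parent calls from 7 to 131, Polycomb calls between the inbreds from 1 to 4 and other chromatin calls from 6 to 17. Uncalled genes also changed sign: nfc102 between the inbreds with the values as deposited (0.0087; omissions -0.051 to 0.023) and nfc103 between the hybrids with median centring (-0.0020; -0.013 to 0.055), and, through omissions, nfc101 between the inbreds (-0.10 to 0.0054) and, between the hybrids, fie2 (-0.016 to 0.057), nfc104 (-0.045 to 0.025), mez2 (-0.092 to 0.15), mez3 (-0.042 to 0.33) and mlg3 (-0.76 to 0.0084). fie1 has 1 probe set, so no second one could be tried.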

Other observations

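Over all probe sets, named or not, the one most like fie1 over the 12 arrays is unnamed here, ZmAffx.943.1.S1_at (r = 0.956, and 0.791 for deviations from genotype means). Its mean log2 signals were 7.98 in B73, 7.91 in B73xMo17, 7.32 in Mo17xB73 and 7.25 in Mo17, with differences of 0.73 ± 0.12 between the inbreds (SE; limma adjusted p = 0.000321) and 0.59 ± 0.12 between the reciprocal hybrids (limma adjusted p = 0.0434). The probe set after yuc, Zm.30.1.S1_a_at (r = 0.941), is also unnamed here and bright, at 13.48 in B73, 13.55 in B73xMo17, 12.97 in Mo17xB73 and 12.76 in Mo17, and differed by 0.72 ± 0.09 (limma adjusted p = 3.25e-05) and 0.58 ± 0.09 (limma adjusted p = 0.011).

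Named genes called in both the inbred and the reciprocal comparison with 1 sign, chosen after their values were seen, included LPE1 (1.16 and 1.43, higher with a B73 seed parent as fie1 was) and plt2 (1.37 and 0.45). Those running the other way included opr1, a 12-oxophytodienoate reductase gene (-2.16 and -0.99), gst30, a glutathione transferase gene (-0.74 and -1.55), and sugary2, a starch synthase gene that the starch list does not hold (-0.99 and -0.96). In fie1 and LPE1 the reciprocal difference was about as wide as the inbred one or wider; in plt2 and opr1 it was narrower. No test of these patterns across genes was made.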
